A study of Homo sapiens with 3 samples.

Results

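The data describe nucleotides U110 to U199 of human 7SK RNA, the stretch usually drawn as its second stem-loop domain (SL2), counted from the 5′ end of the RNA. All 90 nucleotides of this stretch had an effective depth (reads usable for calling mutations) of at least 1000 in each of 3 libraries, out of 288 nucleotides that met this minimum and 332 in the RNA. They were chosen by position and depth, with earlier results of these data known, and comprise 18 A, 26 C, 30 G and 16 U. The libraries came from HEK293T, a human embryonic kidney cell line. SDA treatment was compared with its solvent by RNP-MaP, in which lysines close to the RNA are joined to it and read as mutations in the cDNA. In the SDA group (2 libraries, SDA replicates 1 and 2), living cells were given 10 mM SDA, a reagent that attaches to lysines and carries a light-activated diazirine. In the control group (1 library), they were given 0.5% DMSO. All 3 were kept for 10 min at 37 °C and then irradiated on ice with 2 J/cm2 of 365 nm light, so the control differs from the treated libraries by SDA and not by light. No label states that the SDA pair came from different cultures, so p-values measure only the spread between these libraries, which may be technical. The main test pooled that spread over all tested nucleotides. Its p-values therefore do not show how closely the SDA pair matched at a single nucleotide.

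7SK is an abundant noncoding RNA of the nucleus that sequesters P-TEFb, the kinase that releases paused RNA polymerase II, in an inactive particle. Its SL1 binds HEXIM proteins, which inhibit the kinase, its SL3 binds hnRNP proteins, and its 3′ hairpin binds LARP7, which protects the RNA. SL2 lies between these arms and has no such well-known partner, and the pairing of the middle of the RNA is drawn differently in different models.

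The sequence of SL2, as the deposited tables give it, is shown first, because the results concern single positions in it. In the first line, capitals mark the nucleotides whose mutation rate rose with SDA above the control. In the second, they mark those that rose above the typical nucleotide of the same base. In the last line, they mark those that the authors' deposited tables call as protein contact sites in both replicates.
7SK U110 to U199, higher than the control: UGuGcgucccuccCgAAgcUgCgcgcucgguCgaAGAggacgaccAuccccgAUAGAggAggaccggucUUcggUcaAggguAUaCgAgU
7SK U110 to U199, above the base: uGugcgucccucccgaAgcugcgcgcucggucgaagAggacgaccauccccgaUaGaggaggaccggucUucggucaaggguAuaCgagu
7SK U110 to U199, the authors' shared sites: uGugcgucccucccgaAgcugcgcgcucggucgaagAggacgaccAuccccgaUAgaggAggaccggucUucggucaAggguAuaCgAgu
The last 2 lines hold capitals at scattered single letters, apart from U163 and A164 in the last, while the first also holds short clusters, the longest of them AUAGA.

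Effective depth over SL2 ran from 177509 to 204871 in SDA replicate 1, from 200809 to 225907 in SDA replicate 2 and from 242064 to 272368 in the control. The fewest mutations at any SL2 nucleotide were 57, 79 and 82 in the same order, so no value rests on a count near 0. Mutation rate here is mutations over effective depth. Its median over SL2 was 0.118% and 0.112% with SDA and 0.0888% in the control. The background of the control was itself uneven, from 0.0323% to 1.08%. Mutations were read from PCR products without molecular identifiers, so the intervals given here cover counting error only.

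SDA raised the mutation rate of many SL2 nucleotides by a small factor and of 5 by at least 2-fold. Of the 90, 72 exceeded the control in replicate 1 and in replicate 2, where 79.4% of all measured nucleotides did. The rate of 8 was lower in both (8.36% of all measured nucleotides), and 10 lay above it in 1 library only. By edgeR's quasi-likelihood test with Benjamini-Hochberg adjustment over the 287 nucleotides tested, 28 SL2 nucleotides were higher with SDA and 1 was lower. Over the whole RNA the test called 29.3% higher and 0.697% lower, so the 31.1% of SL2 lay near the share of the RNA as a whole. The 28 rose between 1.23-fold and 2.77-fold, 17 of them at least 1.5-fold, and the highest ratio among the SL2 nucleotides that were not called was 1.33. The single control allows no estimate of its own spread, and the test takes it to vary as the SDA pair does. DESeq2 called 10 higher (9.41% of the RNA) and edgeR with read depth in place of effective depth called 9 (8.01% of the RNA), all of them among the 28.

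**Figure D1:**
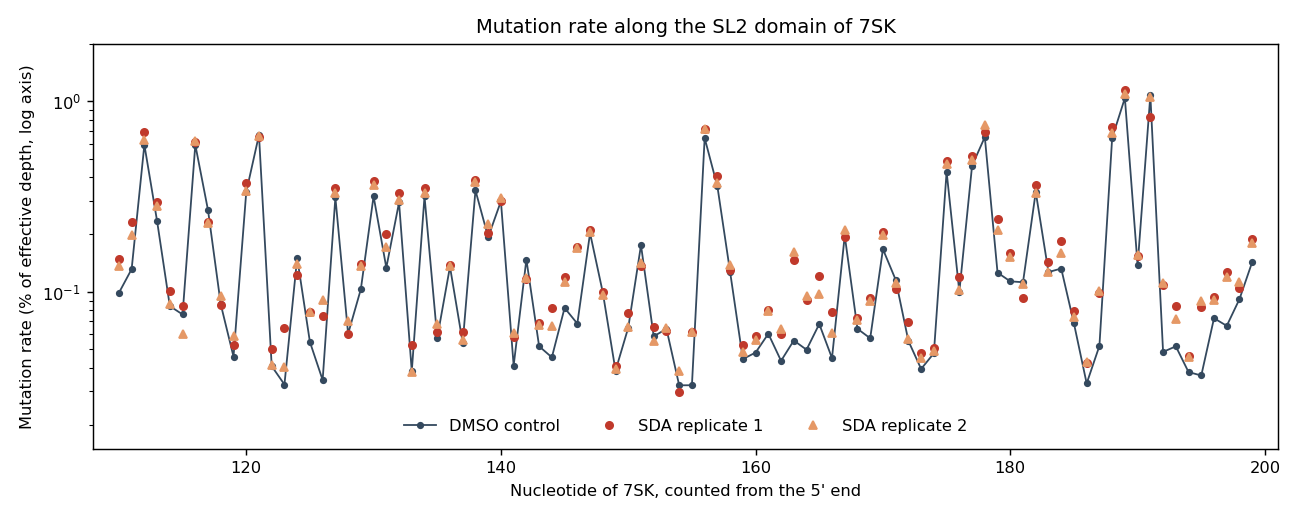
Mutation rate (% of effective depth, log axis) at each SL2 nucleotide, with the control as joined dark points and SDA replicates 1 and 2 as circles and triangles. Most SDA points sit on or just above the control, whose rates run from 0.0323% to 1.08%, and they stand clear of it at low-background positions such as A126, A146, U163 and C195.

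The 28 lay mostly at positions with a low background. Their median control rate was 0.0563%, against 0.121% for the other 62 SL2 nucleotides. Over the whole RNA it was 0.0658% for the 84 called higher and 0.0834% for all 287 tested. The control rate is also the denominator of the tested ratio, so the call and the background are not independent. They comprised 12 A, 8 U, 4 C and 4 G. The 5 highest backgrounds of SL2 were at U191, G189, U156, C178 and C121, with control rates of 1.08%, 1.04%, 0.642%, 0.649% and 0.666%. None of these 5 was called higher: their ratios to the control were 0.874, 1.07, 1.11, 1.11 and 0.981. G189 was among the 5 largest rises on the scale of rate, at 7.52 ± 4.08 mutations per 10000 reads (SD, n = 2), although its adjusted p by edgeR was 0.366.

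By ratio to the control, adenosines had the largest median response of any base in SL2. By rise in rate, uridines did. Their median rise was 4.13 mutations per 10000 reads, against 2.69 for adenosines, 1.94 for guanosines and 0.697 for cytidines of SL2. The median ratio of SDA to control rate was 1.57 over the 18 adenosines of SL2 and 1.33 over the 42 measured adenosines elsewhere. In SDA replicate 1 these medians were 1.69 and 1.33, and in replicate 2 they were 1.46 and 1.36, so the distance was much smaller in the second library. The median control rates of the same adenosines were alike, at 0.0490% in SL2 and 0.0486% elsewhere. Of the 18, edgeR called 12 higher with SDA (48.3% of all measured adenosines were), and 17 lay above the control in both libraries. Uridines had a median ratio of 1.20 in SL2 and 1.10 elsewhere, and 8 of 16 were called higher (45.8% of all measured uridines). Cytidines had medians of 1.11 in SL2 and 1.13 elsewhere, and guanosines 1.11 and 1.10. In SL2 4 of 26 cytidines and 4 of 30 guanosines were called higher (15.4% and 13.3%), beside 18.9% of all measured cytidines and 14.1% of all guanosines. The difference between SL2 and the rest was not tested for any base, since nucleotides of 1 RNA are not replicates.

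**Figure D2:**
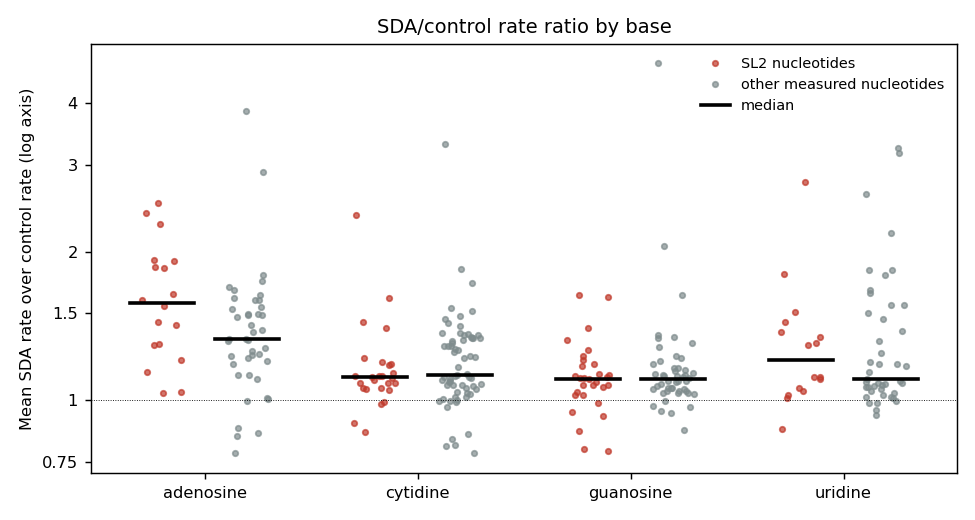
Ratio of the mean SDA rate to the control rate (log axis) for each measured nucleotide, by base, with SL2 in red and the rest of the RNA in grey; black bars are medians. The adenosines of SL2 have a median of 1.57 against 1.33 for other adenosines, while cytidines and guanosines of SL2 lie at 1.11 and 1.11, close to the 1.13 and 1.10 of the rest.

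Because the response differed by base, each nucleotide was also compared with the typical nucleotide of its own base. From each log2 SDA/control ratio, the median over the measured nucleotides with that base was subtracted, and the resulting value is called centred. On this scale 8 SL2 nucleotides were above their base by edgeR and 4 below, that is 8.89% and 4.44% of SL2 beside 9.41% and 3.83% of the RNA. The median centred log2 ratio of the domain was 0.0022 ± 0.0156 (SD of the SDA pair, n = 2), against 0.03 for SL1 (up to A109) and -0.05 for SL3 (A200 to A279). The SL2 nucleotides above their base were U163, C195, A146, A126, A192, U179, G111 and G165, in order of size. DESeq2 called 4 of the 8 (U163, C195, A146 and U179; 5.23% of the RNA), and edgeR with read depth called 3 (U163, C195 and A146; 4.18% of the RNA).

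U163 had the largest relative response in SL2. Mutations reached 0.146% and 0.161% of effective depth with SDA and 0.0555% without it (exact 95% interval 0.0469% to 0.0653%). Both SDA values lay far above that interval, at 2.77 times the control on average. On the centred log2 scale U163 stood at 1.32 (SE 0.17, edgeR adjusted p = 2.73e-12).

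A146 rose by a similar amount of rate and was the most reproducible of the strong positions. Its rates with SDA were 0.172% and 0.171%, against 0.0681% in the control (0.0584% to 0.0789%). At 10.3 ± 0.0952 mutations per 10000 reads (SD, n = 2), its rise was the largest in SL2 on the scale of rate. The ratio was 2.51, but adenosines in general rose, and on the centred log2 scale A146 stood at 0.84 (SE 0.16, edgeR adjusted p = 4.85e-06).

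C195, near the 3′ end of the domain, was the only cytidine of SL2 above its base. It had 0.0835% and 0.0892% with SDA and 0.0364% in the control (0.0295% to 0.0443%). Centred, its log2 ratio came to 1.09 (SE 0.20, edgeR adjusted p = 2.58e-06). The median ratio of SL2 cytidines was 1.11, and that of C195 was 2.37.

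U179 rose from 0.126% in the control (0.113% to 0.141%) to 0.242% and 0.212% with SDA. Its rise of 10.1 ± 2.08 mutations per 10000 reads (SD, n = 2) was close to that of A146, while its ratio was only 1.80. Centred, its log2 ratio came to 0.69 (SE 0.13, edgeR adjusted p = 2.46e-06), and the adjusted p was 0.0537 with read depth in place of effective depth.

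A126 and A192 were the adenosines above their base beside A146. A126 had 0.0743% and 0.0905% with SDA against 0.0344% in the control, a ratio of 2.39 with a visible gap between the SDA libraries. A192 had 0.108% and 0.111% against 0.0484%, a ratio of 2.27 with almost no gap. Their centred log2 ratios were 0.78 (SE 0.21) and 0.70 (SE 0.19), with edgeR adjusted p-values of 0.00311 and 0.00261. Neither passed by DESeq2 (adjusted p = 0.249 and 0.183) or, with read depth as offset, by edgeR (adjusted p = 0.195 and 0.0847).

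G111 and G165 were the guanosines above their base. G111 had 0.232% and 0.199% with SDA against 0.132% in the control, and G165 had 0.122% and 0.0975% against 0.0678%. The first SDA library was the higher in both, and both libraries exceeded the control's interval. The centred log2 ratios were 0.56 (SE 0.13) and 0.54 (SE 0.17), with edgeR adjusted p-values of 0.000257 and 0.0112. Neither passed by DESeq2 (adjusted p = 0.108 and 0.418) or, with read depth as offset, by edgeR (adjusted p = 0.11 and 0.199).

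**Figure D3:**
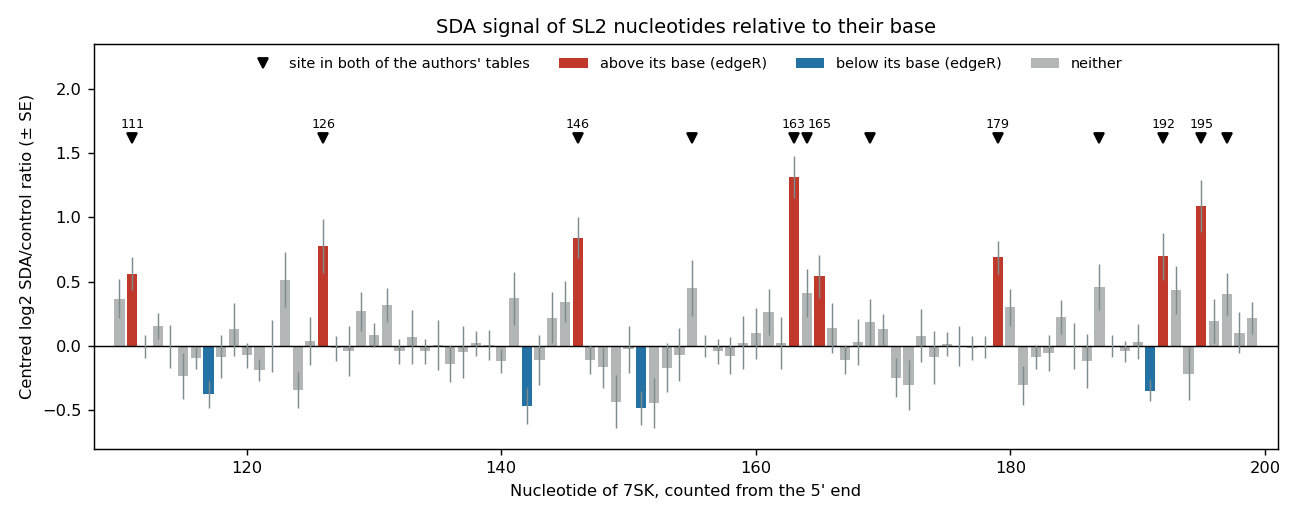
Centred log2 SDA/control ratio of each SL2 nucleotide from edgeR, with its SE; red bars are above and blue bars below the typical nucleotide of the same base, and black triangles mark sites in both of the authors' tables. The 8 red bars stand apart from one another, and the tallest, at U163, reaches 1.32.

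The positions above their base were scattered single nucleotides. The 8 formed 8 separate runs of length 1, with steps of 2 to 20 nucleotides (median 14) from one to the next. The closest were U163 and G165, separated by A164, which rose above the control (0.0905% and 0.0948% against 0.0497%, ratio 1.86, edgeR adjusted p = 1.93e-05) but stood at 0.41 on the centred log2 scale (SE 0.19, edgeR adjusted p = 0.143). SL1, by the same rule, held 14 nucleotides in 7 runs, the longest of 6, and SL3 held 0. This contrast in run length between the domains was not tested. The count in SL2 was 16 in 13 runs by exact tests of SDA replicate 1 alone against the control, and 11 in 9 runs, the longest of 3, by those of SDA replicate 2 alone, tests which compare single libraries. The same tests put 43 and 36 of the 287 nucleotides of the RNA above their base. Set against the control without centring, the 28 higher nucleotides formed 18 runs, of which 12 were single. Within SL2 the longest was A162 to A166 (AUAGA), followed by A144 to A146 (AGA). Pairs stood at U110 and G111, A125 and A126, U179 and U180, and A192 and U193. C108 and A109, just outside SL2, were also higher than the control. U110 and G111 are thus the end of a longer run that the domain boundary cuts.

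Between the enriched positions lay stretches with little response. Of the 11 nucleotides from U112 to C122, 1 was called higher, G113, and the ratios ran from 0.860 to 1.23. From G132 to U140, 0 of 9 were called (ratios 1.01 to 1.18), from G147 to C154, 0 of 8 (0.790 to 1.10), and from G170 to C178, 0 of 9 (0.930 to 1.21). The 3′ end was denser, with 6 of 13 called higher from A187 onward, at A187, A192, U193, C195, A197 and U199. These stretches were delimited after their values had been seen, and no test was made on them.

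The longest cluster coincided with a predicted hairpin loop. RNAfold was run on the whole 7SK sequence and on SL2 alone. The single best structure of each run placed G161 to A166 in a 6-nucleotide hairpin loop. The pairing probabilities of the whole-RNA run left only part of this loop mostly unpaired. They were 0.04, 0.20 and 0.17 at A162, U163 and A164, but 0.61, 0.83 and 0.62 at G161, G165 and A166. Folded alone, SL2 had a second hairpin loop from A143 to A149. Both are printed with the loop in capitals.
7SK G138 to C154, predicted hairpin: ggucgAAGAGGAcgacc
7SK C159 to G168, predicted hairpin: ccGAUAGAgg
In the loop from G161 to A166, which has U163 in its interior, 5 of 6 nucleotides rose above the control. The median log2 SDA/control ratio of the loop was 0.65, and its centred median was 0.34. G161, the only one not called, had 0.0808% and 0.0790% with SDA against 0.0602% (edgeR adjusted p = 0.0722). The paired nucleotides directly around it lay near the control: C159, C160, G167 and G168 had ratios of 1.14, 1.20, 1.02 and 1.13.

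In the loop from A143 to A149, 3 of 7 nucleotides rose, all on its 5′ side, and the centred median was -0.10. A144, G145 and A146 rose, with ratios of 1.64, 1.40 and 2.51 and edgeR adjusted p-values of 0.00247, 0.0115 and 4.24e-14. G147, G148 and A149 had ratios of 1.03, 0.986 and 1.04. A143 had 0.0683% and 0.0666% against 0.0518% (edgeR adjusted p = 0.126). In the fold of the whole RNA this loop was not present and A146 was paired, so the prediction for it depends on what was folded. The whole-RNA fold had another hairpin loop instead, C121 to A125, in which 2 of 5 nucleotides rose above the control and 0 stood above their base. Its ratios were 0.981, 1.12, 1.61, 0.868 and 1.44 in order, with C123 and A125 the nucleotides called, and its centred median was -0.000258.

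**Figure D4:**
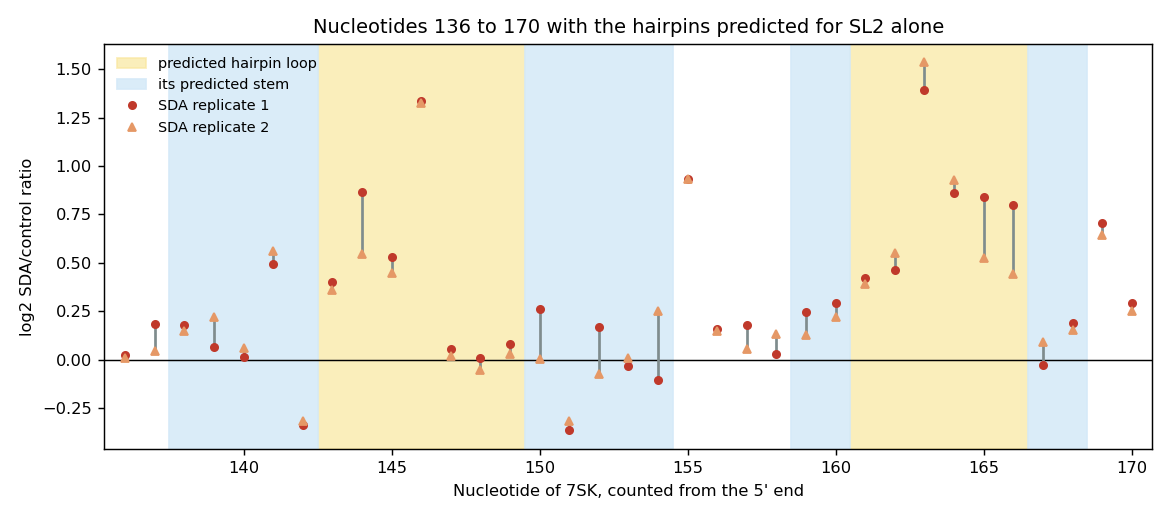
log2 SDA/control ratio of nucleotides U136 to G170 in each SDA library (circles and triangles joined by a line), over the hairpin loops (yellow) and stems (blue) that RNAfold predicts for SL2 folded alone. In the loop from G161 to A166 all points lie above 0, while in the loop from A143 to A149 the rise stops after A146.

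Over the domain, nucleotides predicted to be unpaired had somewhat higher values. In the fold of the whole RNA, 41 SL2 nucleotides were unpaired and 49 paired, with median centred log2 ratios of 0.10 and -0.0021, a difference of 0.104 ± 0.00913 (SD, n = 2 libraries). This SD leaves out the error of the control, which both libraries share. Of the 28 nucleotides higher than the control, 20 were unpaired and 8 paired, and of the 8 above their base 5 were unpaired. The pattern was not particular to SL2. Over the whole RNA, 59.5% of the nucleotides higher than the control and 55.6% of those above their base were unpaired, beside 40.8% of all measured nucleotides. U163 was unpaired in both predictions. The predictions agreed on the state of 57 of the 90 nucleotides, and the whole-RNA structure made up 0.00368% of its predicted ensemble, so single states are uncertain. When pairing was read from probabilities, cut at 0.5, the difference came to 0.0517 ± 0.0295 (SD, n = 2 libraries). By that reading 15 of the 28 were unpaired, beside 32 of all 90 SL2 nucleotides. Over the RNA it left 45 of the 84 called higher and 98 of all 287 unpaired. No test was made over nucleotides.

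A few SL2 nucleotides had fewer mutations with SDA. G151 was the only one lower than the control by edgeR, with 0.136% and 0.141% against 0.176% (0.160% to 0.193%), a log2 ratio of -0.34 (SE 0.13, adjusted p = 0.0357). Both SDA libraries lay below the control's interval. On the centred scale G151, G142, C117 and U191 were below their base, with values of -0.48, -0.47, -0.38 and -0.35 (edgeR adjusted p at most 0.00891). In all 4 both SDA libraries lay below the control, with ratios of 0.790, 0.797, 0.860 and 0.874. In the fold of SL2 alone, G142 and G151 stand on opposite strands of the stem from G138 to C154, on either side of the loop that holds A146. The whole-RNA fold does not place them in 1 stem: there G142 pairs with nucleotide 103 and G151 with C178. A152, in the same stem when SL2 was folded alone, was the next lowest at -0.44 among the 3 lowest centred values. It did not pass the test (SE 0.19, edgeR adjusted p = 0.125). DESeq2 called 0 of the 90 below their base (0.697% of the RNA) and 0 lower. At an unadjusted p under 0.05, edgeR had 9 of the 90 below their base. At that unadjusted cut, edgeR had 23 of the 287 nucleotides of the RNA below their base.

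The SDA libraries were also compared with each other. The rate in replicate 1 was within 10% of that in replicate 2 at 60 of 90 nucleotides, and the median absolute log2 ratio between them was 0.10, beside a median log2 SDA/control ratio of 0.16 in SL2. Fisher's exact test called 1 nucleotide different, U191, with 0.832% and 1.05% (adjusted p = 3.8e-10 over all measured nucleotides, of which 0.697% were called). It compares the libraries, not conditions. Of the 90, 12 had an unadjusted p under 0.05. That count is not given here for the whole RNA, so it cannot be read as particular to SL2. U191 also had the highest background of the domain, and its centred log2 ratio was -0.57 in replicate 1 and -0.21 in replicate 2. Its centred value did not pass by DESeq2 (adjusted p = 0.915) or, with read depth as offset, by edgeR (adjusted p = 0.342). The widest relative gap was at C123, with 0.0649% in replicate 1 and 0.0403% in replicate 2 against 0.0326% in the control, a ratio of 1.61 between the libraries.

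The authors' deposited tables call 19 SL2 sites in replicate 1 and 12 in replicate 2, where 16.4% and 12.9% of all measured nucleotides are sites. In the authors' deposited tables all 12 sites of replicate 2 are also sites of replicate 1, and 10.8% of measured nucleotides are sites in both. They comprise 8 A, 2 U, 1 C and 1 G, and 8 of 18 SL2 adenosines are thus shared sites, beside 5 of 42 adenosines elsewhere. Sites of 1 replicate only make up 7.67% of measured nucleotides in the authors' deposited tables, and in SL2 they are 7 sites of replicate 1: U110, C123, C131, A144, G165, A166 and U193. These 7 were all higher than the control by edgeR, and G165 was above its base. In the authors' deposited tables the ratios at U163 are 2.63 and 2.90, at A146 2.52 and 2.51, and at C195 2.29 and 2.45. Only 3 shared sites, these same positions, have ratios at least 1.5 times the authors' threshold for their base in both tables. The count at this stricter cut is not given here for the whole RNA.

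By edgeR each of the 12 shared sites rose against the control, and 7 of them were above their base. The other 5 were adenosines, A155, A164, A169, A187 and A197, whose ratios to the control were 1.91, 1.86, 1.60, 1.93 and 1.86. Their centred log2 ratios were 0.45, 0.41, 0.19, 0.46 and 0.40, with edgeR adjusted p-values of 0.181, 0.143, 0.628, 0.0799 and 0.0986. When the median of all measured nucleotides was subtracted in place of that of adenosines, all 12 passed. For these 5 adenosines the call therefore turned on whether they were set against adenosines or against all bases. A155 had the same rate in both SDA libraries to 3 digits, 0.0619%, against 0.0323% in the control.

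The domain boundaries fall inside a responsive stretch on the 5′ side. A109, just outside, had 0.114% and 0.101% with SDA against 0.0697%, and U110, just inside, had 0.148% and 0.136% against 0.0987%. C108, next to A109, had 0.0478% and 0.0449% against 0.0251%. At the 3′ end, U199 had 0.190% and 0.181% against 0.143%, and A200, outside, had 0.0390% and 0.0335% against 0.0263%. C108, A109, U110 and U199 were higher than the control by edgeR (adjusted p = 0.000651, 0.00252, 0.00468 and 0.0138), and A200 was not called (adjusted p = 0.0879). Of these 5, only C108 stood above its base (edgeR adjusted p = 0.00999).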

How the data were processed

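RNP-MaP libraries of 7SK from HEK293T cells were made by reverse transcription with Superscript II and PCR with 7SK-specific primers, per the labels' protocols. The authors deposited, per SDA replicate, counts of mutations, read depth, effective depth and off-target reads per nucleotide, and the mutation rate as a fraction (checked: mutations divided by effective depth). A table's modified columns were assigned to the SDA replicate in its name, and the untreated columns, the same in both, to the DMSO control. The authors also deposited a ratio of the rates, a Z-factor score, site calls and a ratio threshold per base, per the file headers. The sources used here do not give the aligner, the mutation caller or the build, so no genomic coordinates are printed.

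The 287 nucleotides with 1 mutation or more and with effective depths of 1000 or more were tested with edgeR 4.0.16 (glmQLFit, glmQLFTest, two-sided; log effective depth as offset; common dispersion 0.00178; 1 residual degree of freedom, spread shared fully between nucleotides), with Benjamini-Hochberg adjustment over all 287 at 0.05. A permutation of 2 libraries against 1 cannot go below p = 0.333. Centred fits added the base median to the offset of the SDA libraries; medians of log2 ratios used a pseudocount of 0.5. SE is the absolute log2 ratio over the root of F. Control intervals are exact Clopper-Pearson at 95%. At the median depths a count of 0, read as up to 3, would allow rates of 0.00156%, 0.0014% and 0.00117% in SDA replicates 1 and 2 and the control. RNAfold 2.7.2 used default settings. DESeq2 1.42.0, R 4.3.3, Python 3.11.15 and scipy 1.17.1 were used.

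Named nucleotides are those above or below their base or lower than the control by edgeR, shared sites of the authors, those differing between the SDA libraries, the 5 highest control rates, the 5 largest rises, the 3 lowest centred values and the boundaries; neighbours of these in the described runs, loops and stems, and sites of replicate 1 alone, were added after their values were seen. The members and lists were chosen with earlier results of these data known. Alternatives were DESeq2, other offsets, filters, centres, pseudocounts, boundaries, run gaps and folds, and leaving out each SDA replicate, by Fisher's exact test against the control or, for centred values, an exact binomial test.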

Additional observations from a re-analysis of the deposited data

Results flagged for a closer look

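Reads mapped off target, a measure the comparisons above do not use, made up a slightly larger share of read depth over SL2 with SDA than in the control. The median over SL2 was 0.0856% of reads for the first SDA library, 0.0719% for the second and 0.0620% for the DMSO library. The single DMSO library leaves the difference untested, and the part of such reads in the mutation rates was not tested.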

How the results depend on the processing

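No paired analysis was possible because the same single control library was set against both SDA libraries. The 28 SL2 nucleotides higher than the control became 10 with DESeq2, 9 with read depth as offset and 14 with TMM factors on library totals, and ranged from 33 to 41 without one SDA replicate (exact tests of single libraries). The 1 lower became 0, 0 and 6 in the same order, and 3 to 5 without one replicate. The 8 above their base became 4 with DESeq2, 3 with read depth and 14 when centred on all bases at once, and 11 to 16 without one replicate, all 8 kept in each of the last 2. The 4 below became 0 with DESeq2 and 0 with read depth, and 7 to 8 without one replicate. With read depth, edgeR estimated 2.64 prior degrees of freedom where the spread was otherwise shared fully, while the ratios of the 8 changed little (U163 1.30, A146 0.84, C195 1.09, centred). The median log2 ratio of SL2, 0.16, ranged from 0.17 to 0.22 without one replicate, and the centred median from -0.0156 to 0.0064. Runs above their base, 8, ranged from 9 to 13. Shared sites of the authors, 12, became 3 at 1.5 times the threshold, a cut not counted here over the whole RNA. The difference between unpaired and paired was 0.0517 (SD of the SDA pair 0.0295) by pairing probability and 0.132 (SD 0.0597) with SL2 folded alone. Filters, pseudocount, boundaries moved by 5 nucleotides and a gap of 1 in a run left every one of these counts within 1.5 times and both medians within 1 SD, and no called nucleotide changed sign. Over the 287 nucleotides of the RNA the counts moved too: 84 higher became 27 (DESeq2), 23 (read depth), 44 (TMM) and 102 to 125 (without one replicate). The 2 lower became 0, 0, 15 and 4 to 9. The 27 above became 15 (DESeq2), 12 (read depth), 39 (centred on all bases) and 36 to 43, and the 11 below became 2, 1, 11 and 23 to 26. The causes were not tested. The lowest ratio called higher in SL2 was 1.23, and what depth alone allows was not tested.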

Other observations

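The SL2 nucleotides that rose above the control often had purines on both sides. Of the 28, 16 (57.1%) did, against 30 of all 90 SL2 nucleotides (33.3%). Over all measured nucleotides, 26 of the 84 called higher (31.0%) and 68 of 287 (23.7%) did. The neighbours were looked at after the values had been seen, so these are counts without a test.

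The rise in rate was spread over more positions than the calls above the base. The 28 nucleotides higher than the control held 55.8% of the rise in rate summed over the SL2 nucleotides with a mean SDA rate above the control, and the 8 above their base held 25.1%. Both lists were called from this same rise and the 28 include the 8, so the larger share of the 28 was fixed in advance. The shares are not given here for the whole RNA.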
